A study of Mus musculus with 12 samples.

Results

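The 10 genes described here belong to the signalling pathways of Nodal, bone morphogenetic protein (BMP), fibroblast growth factor (FGF) and Wnt. They are Tdgf1, Smad3, Smad7, Id1, Id2, Id3, Fgf4, Fgfr1, Fgfr2 and Wnt7b, found by symbol in the count tables of both embryo stages, 10 of 23284 genes. They were chosen by name with results of these data known, those of the 4-cell comparison included, so their values in that comparison are a description with no test. The comparisons between stages use the same 4-cell libraries, so the p-values of the members there carry this choice as well.

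Mouse C57BL/6J zygotes, from superovulated females of 5 to 8 weeks and males of 2 to 6 months, were injected with an antisense oligonucleotide (ASO) against LINE1, an abundant retrotransposon, or with a control ASO labelled RC. Both ASOs are given as 0.75 mM, and the sources used here do not spell out RC. Embryos of both treatments were cultured in KSOM medium. The early 2-cell embryos (early 2C) were taken about 9 h past injection (about 33 h past hCG), and the 4-cell embryos (4C) when 2 days in culture had gone by. There were 4 groups (early 2C RC, early 2C LINE1 ASO, 4C RC and 4C LINE1 ASO) with 3 total RNA libraries apiece, 12 altogether. All embryos were injected, so the RC embryos stand for injected and not for untouched embryos.

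In the Nodal pathway, a secreted ligand acts through activin receptors with the co-receptor Cripto, and Smad2 and Smad3 carry the signal to the nucleus with Smad4. BMP ligands act through Smad1 and Smad5, and the Id genes, encoding helix-loop-helix proteins that hold back other transcription factors, are among their best known targets. FGF4 acts through FGF receptors and the ERK kinases and is known in the mouse for directing inner cell mass cells of the blastocyst to primitive endoderm. Wnt ligands act through Frizzled receptors, in one branch by stabilising beta-catenin.

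Levels are given as CPM (a gene's count as a share of all counts of its library, in ppm), scaled with TMM factors over all 12 libraries, and differences as log2 fold changes from edgeR's quasi-likelihood fit with their standard error (SE). A gene is said to have risen or fallen where its p, adjusted by the Benjamini-Hochberg method over all genes tested, was under 0.05. The total per library was 19160716 to 51854939 counts. Pearson's r of log2 CPM between replicates, taken across genes, was 0.936 to 0.979. No label says that replicates came from separate pools of embryos, so p-values reflect only how these libraries vary, a spread that may be technical. CPM is a share of each library's RNA: in bulk samples, fewer cells of a type and less RNA per cell cannot be told apart. LINE1 RNA was not analysed here, so no value checks the knockdown.

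Markers of the labelled tissue were present. All 7 oocyte and embryo markers had counts, and their summed level was 3779 to 4261 CPM over the early 2C libraries and 342 to 448 CPM over the 4C libraries. Within that sum the genes moved apart with the ASO at 4C. Pou5f1 was at 198, 114 and 194 CPM in RC and at 75.4, 39.7 and 105 CPM in LINE1 ASO, lower without overlap. Bmp15, an oocyte ligand, was at 28.3, 36.5 and 35.6 CPM in RC and at 68.9, 65.0 and 39.1 CPM in LINE1 ASO, and Gdf9, Nlrp5 and Ooep were likewise higher without overlap, while Zar1 and Zp3 overlapped. The 11 cumulus cell markers summed to 2.86 to 5.28 CPM at early 2C and to 31.4 to 42.1 CPM at 4C, where Amhr2 alone was at 28.4 to 40.7 CPM against at most 0.366 CPM at early 2C. The other 10 summed to 2.49 to 5.20 CPM at early 2C and to 0.885 to 4.38 CPM at 4C. The 7 markers of the 2-cell stage summed to 69.9 to 89.5 CPM at early 2C, to 10.8 to 49.7 CPM in 4C RC and to 31.3 to 228 CPM in 4C LINE1 ASO. Of 6 sperm markers Tnp2 was at 0 and the sum was at most 5.08 CPM, and of 7 blood markers the globin genes Hba-a1, Hba-a2, Hbb-b1 and Hbb-b2 were at 0 and the sum was at most 1.45 CPM. One library stood apart from its group in Dux, the transcription factor that activates the 2-cell programme. Dux was at 43.0, 45.8 and 1.27 CPM in 4C LINE1 ASO replicates 1, 2 and 3, against 0.792, 0.0941 and 0.563 CPM in 4C RC. The other 2-cell markers were also lowest in replicate 3, except Zfp352. Zfp352 was at 6.50, 51.4 and 17.1 CPM in these replicates, against 8.99, 28.9 and 5.96 CPM in 4C RC. Whether replicate 3 of 4C LINE1 ASO carries the right label was not determined. It was used as labelled, so each 4C LINE1 ASO mean includes it. The fold changes and calls at 4C are therefore given with and without 4C LINE1 ASO replicate 3. The part of these marker levels in the results below was not tested.

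**Figure D1:**
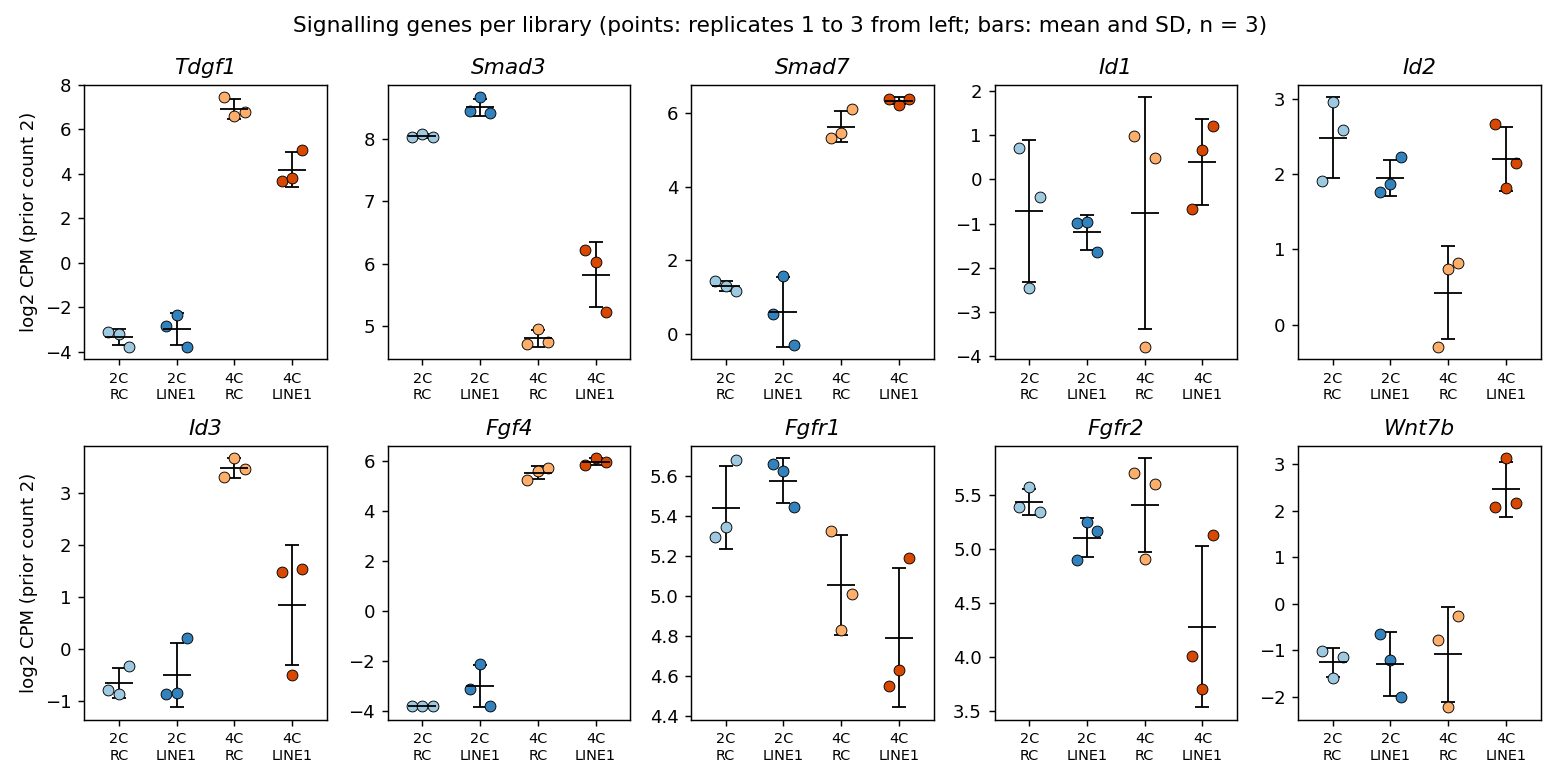
Level of each of the 10 genes in each library, as log2 CPM with a prior count of 2 (vertical axes, each with its own scale), by stage and ASO (horizontal axes). Points are replicates 1 to 3 from left to right, and bars are the mean and SD (n = 3). Tdgf1, Fgf4, Smad7 and Id3 are higher in 4C RC than in early 2C RC, Smad3 is lower, and Wnt7b stands apart only in the 4C LINE1 ASO libraries.

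The Nodal branch held the members with the highest level per kilobase (kb) of exon in RC embryos, Smad3 at early 2C (mean 52.0 CPM per kb) and Tdgf1 at 4C (mean 65.4 CPM per kb). In 4C LINE1 ASO Fgf4 had the highest mean of the members, 20.6 CPM per kb, and Tdgf1 was at 10.4. Tdgf1 encodes Cripto, the co-receptor that Nodal needs. At early 2C it had 1, 1 and 0 counts in the RC libraries and 3, 3 and 0 counts in the LINE1 ASO libraries, too few for a test of the ASO. At 4C it stood at 174, 96.2 and 109 CPM in RC and at 12.5, 13.8 and 33.8 CPM in LINE1 ASO. Every 4C RC library lay above every 4C LINE1 ASO library, and replicate 3 was the highest of the LINE1 ASO libraries. Its log2 fold change, LINE1 ASO minus RC at 4C, was -2.71 (SE 0.414), and -3.39 without LINE1 ASO replicate 3. From early 2C to 4C, Tdgf1 went in RC embryos from 2 to 8487 counts summed over libraries. This was a 4848-fold increase per effective library size, with a 95% counting interval of 1342 to 40036. In LINE1 ASO embryos Tdgf1 went from 6 to 1683 counts, a 331-fold increase (152 to 904). Tdgf1 passed the filter only through its 4C libraries and so had to differ, and no p is given for its change with stage. Tdgf1 has annotated pseudogenes, Tdgf1-ps1 and Tdgf1-ps2, and its counts are uncertain where reads match them.

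The promoter of Tdgf1 is shown because the gene went from nearly no counts to the highest level per kb among the members in 4C RC. It spans 250 bases before to 50 bases after the RefSeq start, at chr9:110946109-110946408 (GRCm38.p6, minus strand). Of the 10 members 6 matched this promoter table: Tdgf1, Smad3, Id2, Id3, Fgf4 and Fgfr2. Capitals here and below mark the letters CAGAC, which hold the short Smad box, and GGCGCC, a GC-rich Smad site, on either strand.
Tdgf1: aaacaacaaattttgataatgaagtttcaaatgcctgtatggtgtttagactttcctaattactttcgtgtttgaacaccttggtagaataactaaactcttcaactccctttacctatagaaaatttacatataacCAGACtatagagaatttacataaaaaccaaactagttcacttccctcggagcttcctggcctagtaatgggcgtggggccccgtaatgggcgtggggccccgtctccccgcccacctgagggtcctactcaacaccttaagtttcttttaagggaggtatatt
It holds CAGAC at 1 place and GGCGCC at none. CAGAC occurs in 49.6% and GGCGCC in 11.9% of the 32851 promoters of the table. Neither TATAAA nor ATTTGCAT, the octamer bound by POU factors, occurs on either strand in any of the 6 promoters, against 13.6% and 1.74% of all promoters. These matches describe the letters only.

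Smad3, which carries Nodal, activin and TGF-beta signals to DNA, was abundant at early 2C. It stood at 261, 271 and 262 CPM in early 2C RC and at 348, 407 and 343 CPM in early 2C LINE1 ASO. All 3 LINE1 ASO libraries lay above all 3 RC libraries. It rose with the LINE1 ASO at early 2C by 0.46 on the log2 scale (SE 0.0913, edgeR adjusted p = 0.0270). The call was lost when RC replicate 1 or 3 or LINE1 ASO replicate 1 or 2 was left out (adjusted p = 0.132, 0.0827, 0.0835 and 0.490), while the log2 fold change stayed between 0.38 and 0.51. At 4C Smad3 was at 26.0, 30.9 and 26.7 CPM in RC and at 74.1, 65.4 and 37.3 CPM in LINE1 ASO. The groups did not overlap, and replicate 3 was the lowest LINE1 ASO library. Its 4C log2 fold change was 1.01 (SE 0.252), and 1.19 without LINE1 ASO replicate 3. Smad3 fell from early 2C to 4C in RC embryos by 3.25 (SE 0.214, adjusted p = 1.66e-09) and in LINE1 ASO embryos by 2.64 (SE 0.208, adjusted p = 1.51e-08). The order of its groups, from early 2C LINE1 ASO through early 2C RC and 4C LINE1 ASO to 4C RC, held no overlap between neighbours.

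Smad7 encodes an inhibitory Smad that blocks the type I receptors and is itself induced by TGF-beta and BMP signals. At early 2C it was at 2.66, 2.42 and 2.17 CPM in RC and at 1.38, 2.94 and 0.736 CPM in LINE1 ASO. These groups overlapped, and the log2 fold change of -0.54 (SE 0.488) did not pass the test (edgeR adjusted p = 0.830). At 4C Smad7 stood at 40.5, 44.2 and 69.3 CPM in RC and at 84.6, 75.1 and 83.8 CPM in LINE1 ASO. Its 4C groups did not overlap, and RC replicate 3 lay nearest to the LINE1 ASO libraries. The log2 fold change at 4C was 0.61 (SE 0.215), and 0.52 without LINE1 ASO replicate 3. Smad7 rose from early 2C to 4C in RC embryos by 4.41 (SE 0.381, adjusted p = 3.92e-08) and in LINE1 ASO embryos by 5.61 (SE 0.402, adjusted p = 5.17e-09).

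Among the 3 Id genes at 4C, the LINE1 ASO libraries lay below the RC libraries for Id3, which is among the called members, and above them for Id2, which is not. Id1 was too low and variable to order. Id3 was at 0.507, 0.476 and 0.724 CPM in early 2C RC and at 0.475, 0.483 and 1.09 CPM in early 2C LINE1 ASO, which overlapped (log2 fold change 0.25, SE 0.784, edgeR adjusted p = 0.966). At 4C Id3 stood at 9.73, 12.6 and 10.9 CPM in RC and at 2.70, 0.639 and 2.82 CPM in LINE1 ASO. The 4C groups did not overlap, and LINE1 ASO replicate 2 was close to the early 2C level. The log2 fold change at 4C was -2.49 (SE 0.524), and -2.87 without LINE1 ASO replicate 3. From early 2C to 4C, Id3 rose in RC embryos by 4.27 (SE 0.641, adjusted p = 1.96e-05) and in LINE1 ASO embryos by 1.59 (SE 0.585, adjusted p = 0.0236). In LINE1 ASO embryos its early 2C and 4C ranges overlapped, and the rise did not pass without 4C LINE1 ASO replicate 3 (1.29, adjusted p = 0.0803).

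Id2 was at 3.68, 7.69 and 5.95 CPM in early 2C RC and at 3.32, 3.58 and 4.59 CPM in early 2C LINE1 ASO. The ranges overlapped, and the log2 fold change of -0.60 (SE 0.313) did not pass (edgeR adjusted p = 0.628). At 4C Id2 was at 0.745, 1.60 and 1.69 CPM in RC and at 6.24, 3.43 and 4.34 CPM in LINE1 ASO. The 4C groups did not overlap, while the 4C LINE1 ASO libraries lay within the range of the early 2C libraries. The log2 fold change at 4C was 1.74 (SE 0.579), and 1.72 without LINE1 ASO replicate 3. Id2 fell from early 2C to 4C in RC embryos by 2.10 (SE 0.499, adjusted p = 0.00141). In LINE1 ASO embryos its change was 0.29 (SE 0.473, adjusted p = 0.600).

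Id1 was at 1.56, 0.110 and 0.686 CPM in early 2C RC and at 0.432, 0.443 and 0.245 CPM in early 2C LINE1 ASO. It was at 1.91, 0 and 1.33 CPM in 4C RC and at 0.554, 1.51 and 2.24 CPM in 4C LINE1 ASO. No neighbouring groups in the order of its levels were free of overlap, and none of its tests passed: the adjusted p was 0.813 for the ASO at early 2C, 0.739 for the stage in RC and 0.171 for the stage in LINE1 ASO embryos. Its 4C LINE1 ASO libraries did lie above its early 2C LINE1 ASO libraries without overlap. At 4C its log2 fold change was 0.37 (SE 1.19) and changed sign to -0.18 without LINE1 ASO replicate 3.

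The promoters of Id2 and Id3 are set side by side because these genes of 1 family moved apart from early 2C to 4C in RC embryos. Id2 lies at chr12:25096043-25096342 (GRCm38.p6, minus strand) and Id3 at chr4:136143572-136143871 (GRCm38.p6, plus strand).
Id2: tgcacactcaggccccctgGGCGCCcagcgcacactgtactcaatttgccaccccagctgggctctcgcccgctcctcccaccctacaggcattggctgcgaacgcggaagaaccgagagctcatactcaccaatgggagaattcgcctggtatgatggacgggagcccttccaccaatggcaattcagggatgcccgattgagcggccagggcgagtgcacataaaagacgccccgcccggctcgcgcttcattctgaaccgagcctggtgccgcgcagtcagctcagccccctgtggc
Id3: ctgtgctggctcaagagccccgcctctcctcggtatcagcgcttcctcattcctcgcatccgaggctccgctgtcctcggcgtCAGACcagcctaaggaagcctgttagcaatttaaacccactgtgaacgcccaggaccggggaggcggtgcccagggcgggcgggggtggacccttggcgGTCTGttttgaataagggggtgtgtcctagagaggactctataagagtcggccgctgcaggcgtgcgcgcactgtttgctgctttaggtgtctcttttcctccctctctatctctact
Id2 holds GGCGCC at 1 place and no CAGAC, and Id3 holds CAGAC at 2 places, one of them on the other strand, and no GGCGCC. The promoters hold 21 and 19 CpG, against a median of 7 over all promoters of the table.

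Levels within a family were compared per kb of exon, from annotated exon lengths. In 4C RC embryos Id3 led the Id family at 8.68 ± 1.13 CPM per kb (SD, n = 3), above Id1 at 0.930 ± 0.844, Id2 at 0.552 ± 0.214 and Id4 at 0.344 ± 0.0917. In 4C LINE1 ASO embryos Id2 was at 1.92 ± 0.588, Id3 at 1.61 ± 0.959, Id4 at 1.34 ± 0.414 and Id1 at 1.24 ± 0.730 CPM per kb, with means of 1.98, 1.31, 1.36 and 0.891 without replicate 3. The lowest Id3 library of 4C RC, 7.62 CPM per kb, lay above every library of the other Id genes, while in 4C LINE1 ASO the ranges of all 4 overlapped. At early 2C Id2 was the highest of the family in RC, at 2.37 ± 0.827 CPM per kb.

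**Figure D2:**
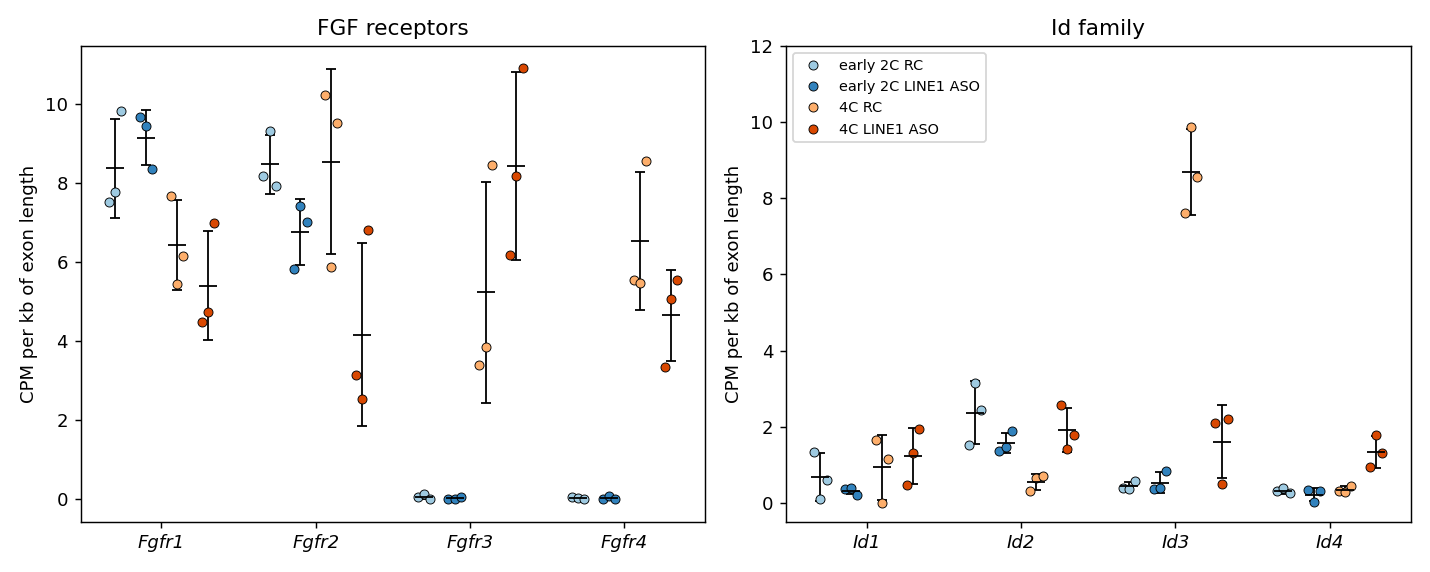
Level per kb of exon (vertical axes, CPM per kb) of the 4 FGF receptor genes (left) and the 4 Id genes (right), by stage and ASO. Points are libraries and bars are the mean and SD (n = 3). Fgfr3 and Fgfr4 are near 0 at early 2C and at levels like those of Fgfr1 and Fgfr2 at 4C, and Id3 leads the Id genes in 4C RC alone.

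Fgf4 encodes the ligand through which the pluripotent cells of the blastocyst signal. It had 0 counts in all 3 early 2C RC libraries, which allows up to 0.0389 CPM for the group from a floor of 3 counts, and 2, 4 and 0 counts in early 2C LINE1 ASO. At 4C Fgf4 stood at 37.4, 48.6 and 52.8 CPM in RC and at 56.5, 68.8 and 62.1 CPM in LINE1 ASO. The 4C groups did not overlap, by a gap between the highest RC and the lowest LINE1 ASO library that was smaller than either group's range. Its 4C log2 fold change was 0.37 (SE 0.200), and 0.31 without LINE1 ASO replicate 3. From early 2C to 4C, Fgf4 went in RC embryos to 3149 counts, at least 1199-fold higher against the floor of 3 counts over the group. In LINE1 ASO embryos Fgf4 went from 6 to 5293 counts, a 1042-fold increase with a counting interval of 478 to 2840. Like Tdgf1, Fgf4 passed the filter only through its 4C libraries, and no p is given for its change with stage.

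The Fgf4 promoter is shown beside that of Tdgf1, since both genes went from at most 6 counts over a group at early 2C to at least 1683 counts over the 4C libraries of the same ASO. It lies at chr7:144861136-144861435 (GRCm38.p6, plus strand).
Fgf4: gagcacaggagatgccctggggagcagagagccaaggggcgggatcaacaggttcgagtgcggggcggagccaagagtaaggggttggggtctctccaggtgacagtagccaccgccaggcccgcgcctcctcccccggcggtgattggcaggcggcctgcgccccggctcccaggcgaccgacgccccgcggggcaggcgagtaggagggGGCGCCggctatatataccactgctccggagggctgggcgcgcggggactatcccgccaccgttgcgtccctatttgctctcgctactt
It holds GGCGCC at 1 place and no CAGAC. With 28 CpG and a GC content of 69.7% it differs in base composition from the Tdgf1 promoter, which has 7 CpG and 41.7%.

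The receptors Fgfr1 and Fgfr2, tyrosine kinases that bind FGF4, were present at both stages. Fgfr1 was at 39.2, 40.6 and 51.1 CPM in early 2C RC and at 50.4, 49.2 and 43.5 CPM in early 2C LINE1 ASO (log2 fold change 0.12, SE 0.135, edgeR adjusted p = 0.878). At 4C it was at 40.0, 28.4 and 32.1 CPM in RC and at 23.3, 24.7 and 36.4 CPM in LINE1 ASO. Both pairs of groups overlapped, and the log2 fold change at 4C was -0.31 (SE 0.263), or -0.61 without LINE1 ASO replicate 3. Fgfr1 did not pass for the stage in RC embryos (log2 fold change -0.38, SE 0.214, adjusted p = 0.120) and fell in LINE1 ASO embryos by 0.76 (SE 0.215, adjusted p = 0.00507). An antisense gene, Gm16159, shares 164 nt of exon with Fgfr1.

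Fgfr2 was at 41.8, 47.6 and 40.5 CPM in early 2C RC and at 29.8, 37.9 and 35.9 CPM in early 2C LINE1 ASO. These groups did not overlap, but the log2 fold change of -0.34 (SE 0.139) did not pass the adjustment (edgeR unadjusted p = 0.0258, adjusted p = 0.459). At 4C Fgfr2 was at 52.3, 30.0 and 48.6 CPM in RC and at 16.0, 12.9 and 34.9 CPM in LINE1 ASO. The 4C groups overlapped, because LINE1 ASO replicate 3 lay above RC replicate 2. For Fgfr2 the 4C log2 fold change was -1.08 (SE 0.361), and -1.71 without LINE1 ASO replicate 3. Fgfr2 showed no called change with stage, at 0.01 in RC embryos (SE 0.311, adjusted p = 0.978) and -0.70 in LINE1 ASO embryos (SE 0.313, adjusted p = 0.0572). Without 4C LINE1 ASO replicate 3 the latter was -1.26 and passed (adjusted p = 0.000401). The annotated span of Fgfr2 overlaps 69 other genes, and its exons share 314 nt with those of Ctbp2 on the same strand.

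Per kb, Fgfr1 and Fgfr2 were the main FGF receptors at early 2C, at 8.37 ± 1.25 and 8.47 ± 0.743 CPM per kb in RC (SD, n = 3), against 0.0662 ± 0.0601 for Fgfr3 and 0.0243 ± 0.0255 for Fgfr4. In 4C RC the 4 receptors lay between 5.23 ± 2.80 for Fgfr3 and 8.53 ± 2.34 for Fgfr2, and their ranges overlapped. In 4C LINE1 ASO Fgfr3 was at 8.42 ± 2.38 and Fgfr2 at 4.16 ± 2.32 CPM per kb, with Fgfr1 at 5.40 ± 1.38 and Fgfr4 at 4.66 ± 1.15. Without replicate 3 the means of Fgfr1 to Fgfr4 were 4.61, 2.83, 7.18 and 4.21 CPM per kb. Neither Fgfr3 nor Fgfr4 passed the test of the ASO at 4C (edgeR adjusted p = 0.282 and 0.313, and 0.593 and 0.147 without LINE1 ASO replicate 3).

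Wnt7b, a Wnt ligand, was low in all groups but one. It was at 0.422, 0.256 and 0.381 CPM in early 2C RC and at 0.561, 0.362 and 0.175 CPM in early 2C LINE1 ASO, below the filter for a test. At 4C it stood at 0.512, 0.141 and 0.765 CPM in RC and at 4.17, 8.71 and 4.41 CPM in LINE1 ASO. Each 4C LINE1 ASO library, replicate 3 included, lay above all 9 other libraries. For Wnt7b the 4C log2 fold change was 3.53 (SE 0.692), and 3.63 without LINE1 ASO replicate 3, and it rests on 33 counts in RC and 494 in LINE1 ASO. With stage, the log2 fold change of Wnt7b was 3.94 (SE 0.772) in LINE1 ASO embryos, a description that rests on the same 4C LINE1 ASO libraries, and 0.43 in RC embryos (SE 0.741, edgeR adjusted p = 0.615). The antisense gene AU022754 shares 236 nt of exon with Wnt7b; it had 2, 43 and 11 counts in 4C RC and 28, 30 and 24 counts in 4C LINE1 ASO. Per kb, Wnt7b was at a mean of 0.103 CPM in 4C RC and 1.25 CPM in 4C LINE1 ASO.

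Over the members as a list, the LINE1 ASO at early 2C gave 1 call, Smad3, among 7 tested, against 0.367% of the 13625 genes tested (0.272% higher). At an unadjusted p under 0.05 there were 2, Smad3 and Fgfr2, against 8.84% of all genes, and the same 2 had groups without overlap, against 14.2%. The median log2 fold change of the 7 was -0.34, and that of all genes -0.01. Tdgf1, Fgf4 and Wnt7b were not tested at this stage. Results of these data were known when the members were chosen, so nothing is read from these shares either.

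At 4C all 10 members passed the filter, and 4 were called: Smad3 and Wnt7b higher and Tdgf1 and Id3 lower with the LINE1 ASO. Of 14231 genes, 4.53% were called, 1.93% higher and 2.61% lower. An unadjusted p under 0.05 was found for 7 members and 22.2% of all genes. The groups did not overlap for 7 members, against 27.1% of all genes, and the median log2 fold change was 0.37 for the members and 0.05 for all genes. Because results of this comparison were known when the members were chosen, nothing is read from these shares. The number of members called was 5 without LINE1 ASO replicate 3, with Fgfr2 added, but that fit called 14.3% of all genes. It was 1 without RC replicate 3, where 0.785% of all genes were called, and 0 without any one of the other 4 libraries, where at most 0.101% were. Over these 6 fits 4 to 2126 genes were called.

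**Figure D3:**
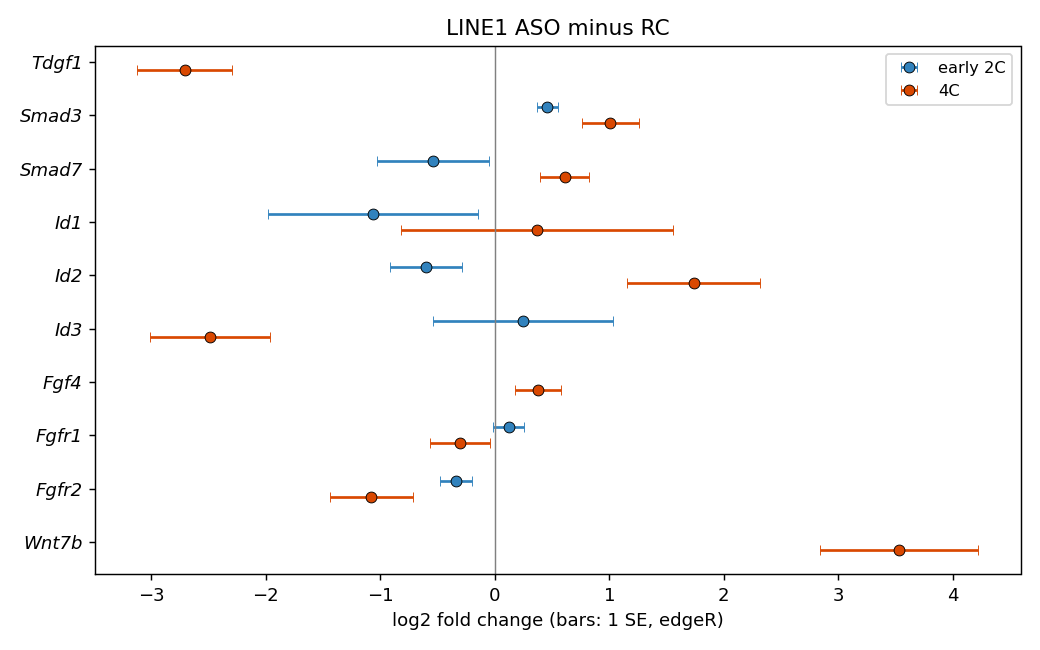
Log2 fold change, LINE1 ASO minus RC (horizontal axis), of each member within early 2C (blue) and within 4C (orange), with bars of 1 SE from edgeR. Tdgf1, Fgf4 and Wnt7b have no early 2C value because their counts were below the filter. At early 2C the Smad3 value of 0.46 is the only called one, and at 4C the values run from -2.71 for Tdgf1 to 3.53 for Wnt7b.

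The question whether the ASO difference depended on stage was addressed with the interaction of stage and ASO, the 4C log2 fold change minus that at early 2C in 1 fit of all 12 libraries. It was 2.38 (SE 0.684) for Id2, -2.68 (SE 0.828) for Id3, 3.51 (SE 1.04) for Wnt7b, 1.21 (SE 0.491) for Smad7 and 0.61 (SE 0.278) for Smad3. For Fgfr1, called with stage in LINE1 ASO embryos alone, the interaction was -0.38 (SE 0.303). None of the 10 members was called by edgeR, while 7 had an unadjusted p under 0.05. Of 15760 genes, edgeR called 1.12%, and 17.5% had an unadjusted p under 0.05. DESeq2 called 4 members and 862 of all genes, against 176 of all genes with edgeR. The interaction contains the 4C comparison, so these values too are a description. Without 4C LINE1 ASO replicate 3, edgeR called 3 members and 7.93% of all genes. The members were Smad3 (0.86), Fgfr2 (-1.26) and Tdgf1, whose early 2C groups hold 2 and 6 counts and for which no size is given.

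Between stages, most members changed, as did most genes. In RC embryos 6 of 10 were called, with Tdgf1, Smad7, Id3 and Fgf4 higher and Smad3 and Id2 lower at 4C, against 72.7% of 15760 genes (36.1% higher and 36.6% lower). The same 6 had groups without overlap, against 76.0% of all genes. In LINE1 ASO embryos 7 were called, with Tdgf1, Smad7, Id3, Fgf4 and Wnt7b higher and Smad3 and Fgfr1 lower, against 71.8% of all genes (37.6% higher and 34.2% lower). Groups did not overlap for 7 members, against 78.8% of all genes. The medians of the members were 0.44 in RC and 1.76 in LINE1 ASO embryos, and those of all genes 0.09 and 0.24. The 4C libraries of these contrasts are also those of the 4C ASO comparison. Tdgf1 and Fgf4 passed the filter only through their 4C libraries and so had to differ, and nothing is read from the counts of members called.

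**Figure D4:**
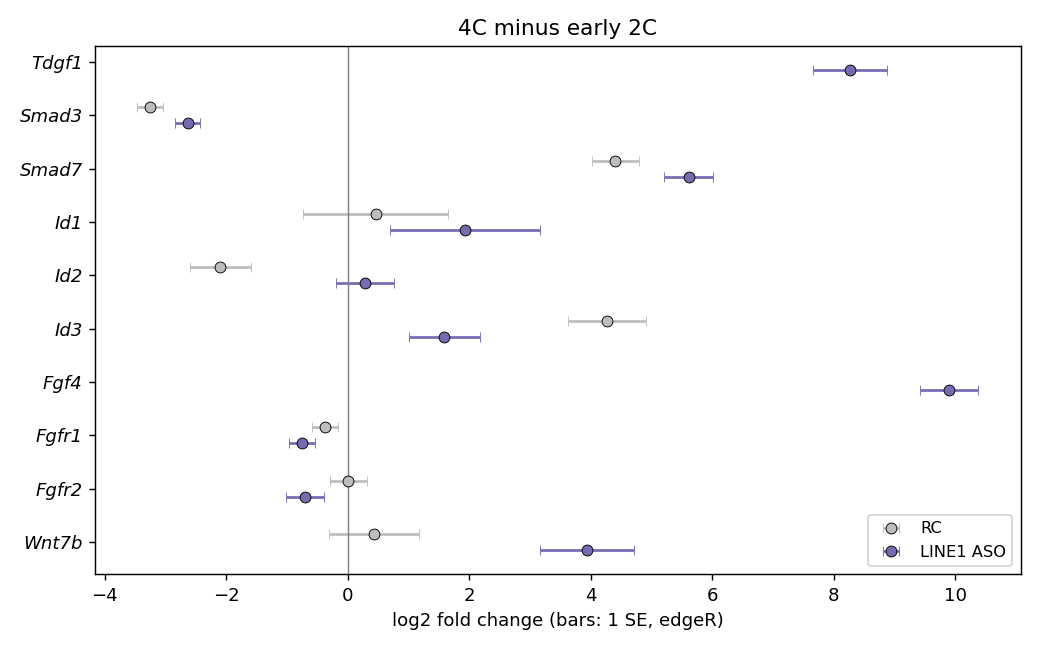
Log2 fold change, 4C minus early 2C (horizontal axis), of each member in RC embryos (grey) and in LINE1 ASO embryos (purple), with bars of 1 SE from edgeR. Tdgf1 and Fgf4 have no RC point because their early 2C RC libraries held 2 and 0 counts. Smad7 and Id3 lie above 0 and Smad3 below 0 in both, while Id2 lies at -2.10 in RC and 0.29 in LINE1 ASO embryos.

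The wider pathways were described from 4 lists of other genes, 186 in all, of Nodal, activin and TGF-beta, BMP, FGF and ERK, and Wnt components. These lists too were chosen with earlier results of these data known, so the p-values of their genes may carry this choice. Nodal itself, the ligand that uses Cripto, was almost absent, with 0 counts in early 2C RC, 0, 4 and 0 in early 2C LINE1 ASO. Its 4C counts were 2, 2 and 0 with RC, and with the LINE1 ASO they were 23, 1 and 0. At early 2C, edgeR called 0 of 128 tested list genes between the ASOs, against 0.367% of all genes, and 6 had an unadjusted p under 0.05, against 8.84% of all genes. DESeq2 called 2. At 4C edgeR called 7 of 141, 4.96%, near the 4.53% of all genes, with 6 higher and 1 lower in LINE1 ASO. Without LINE1 ASO replicate 3 it called 25 of 147, 17 higher and 8 lower, 17.0% against 14.3% of all genes.

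In the Nodal list 2 of 23 tested genes were called at 4C, and the median log2 fold change of the tested genes was 0.32. Tgif1, a homeodomain repressor that binds Smad2 and Smad3, was at 4.05, 4.52 and 5.63 CPM in RC and at 21.0, 23.9 and 13.0 CPM in LINE1 ASO. It rose by 1.96 (SE 0.335, edgeR adjusted p = 0.0172), with no overlap between groups. Fstl3, a secreted protein that binds activin, was at 26.2, 16.2 and 13.3 CPM in RC and at 5.02, 3.67 and 8.32 CPM in LINE1 ASO, and fell by 1.77 (SE 0.40, adjusted p = 0.0297). Without LINE1 ASO replicate 3 their log2 fold changes were 2.12 and -2.23. Smad2 (0.12) and Smad4 (-0.24), the partners of Smad3, did not pass (adjusted p = 0.766 and 0.482). None of 19 BMP genes was called (median 0.46), with 4 at an unadjusted p under 0.05; the receptors Bmpr1a (-0.24) and Bmpr2 (-0.02) and the transducers Smad1 (0.78) and Smad5 (0.87) did not pass (adjusted p = 0.467, 0.968, 0.304 and 0.205). Without LINE1 ASO replicate 3 the calls were 6 of 23 in the Nodal list (median 0.40) and 2 of 20 in the BMP list (median 0.32), and Smad2, Smad4, Bmpr1a, Bmpr2, Smad1 and Smad5 did not pass in that fit either.

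In the FGF and ERK list 1 of 40 tested genes was called at 4C (median 0.14): Spry4, a feedback inhibitor of receptor tyrosine kinase signals. It was at 60.9, 62.5 and 90.4 CPM in RC and at 243, 230 and 92.0 CPM in LINE1 ASO, and rose by 1.34 (SE 0.295, edgeR adjusted p = 0.0291). Replicate 3 of LINE1 ASO lay next to the highest RC library, and without it the 4C log2 fold change of Spry4 was 1.61. The fit without that library called 7 of 41 genes of the list, 3 higher and 4 lower (median 0.22). Among the lower ones were other feedback inhibitors, Spry2 (-1.28, edgeR adjusted p = 0.00482) and Spred1 (-0.74, adjusted p = 0.0430). The FGF and ERK targets Dusp6 (-0.45) and Etv5 (-0.63) did not pass (adjusted p = 0.662 and 0.115, and 0.304 and 0.0837 without that library).

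In the Wnt list 4 of 59 tested genes were called at 4C, all higher in LINE1 ASO (median of the tested genes 0.38). The receptor gene Fzd5 was at 19.2, 12.8 and 19.4 CPM in RC and at 58.5, 57.9 and 46.3 CPM in LINE1 ASO, and rose by 1.60 (SE 0.238, edgeR adjusted p = 0.0144). Fzd7, another Frizzled receptor, rose by 1.18 (SE 0.308, adjusted p = 0.0466), and Ryk, a Wnt co-receptor of the tyrosine kinase family, by 0.87 (SE 0.224, adjusted p = 0.0444). Bcl9l, a beta-catenin coactivator, was at 0.512, 0.988 and 0.765 CPM in RC and at 4.62, 10.5 and 2.39 CPM in LINE1 ASO, and rose by 2.87 (SE 0.658, adjusted p = 0.0313). Beta-catenin itself, Ctnnb1 (0.49), and Axin2 (0.89), a common target of the pathway, did not pass (adjusted p = 0.101 and 0.0517). Without LINE1 ASO replicate 3 the log2 fold changes of Fzd5, Fzd7, Ryk and Bcl9l were 1.64, 1.34, 1.02 and 3.18, and Axin2 passed at 1.03 (adjusted p = 0.00662). That fit called 10 of 63 genes of the list, 8 higher and 2 lower (median 0.43). When each of the 6 libraries was left out in turn, Fzd5 and Tgif1 kept their call in 2 of 6 fits and each of the other 5 called genes in 1 of 6.

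**Figure D5:**
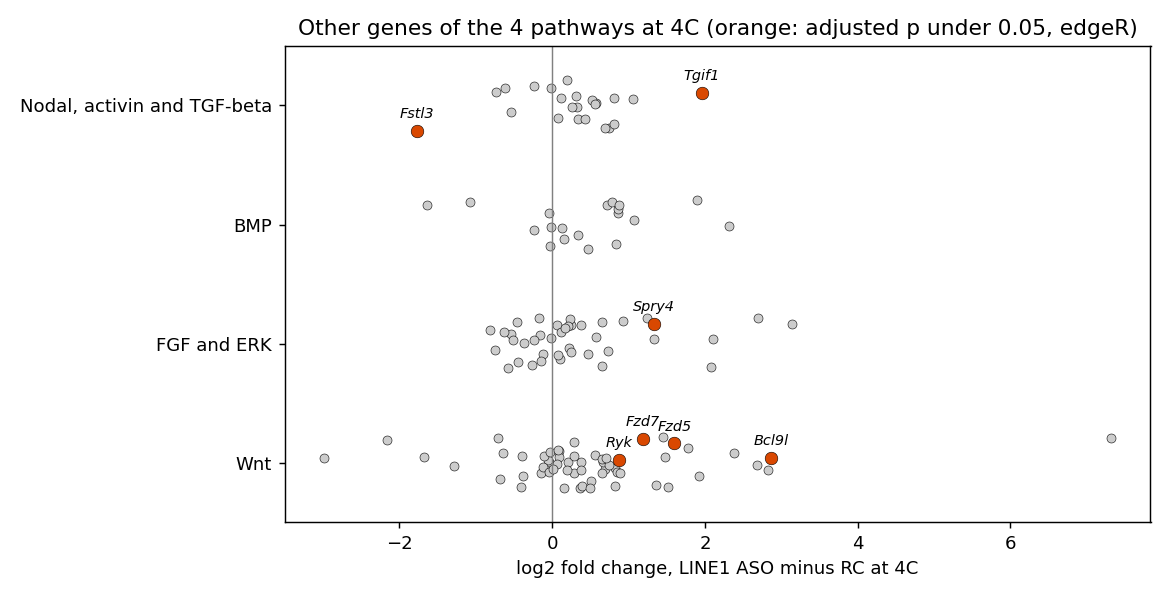
Log2 fold change, LINE1 ASO minus RC at 4C (horizontal axis), of the tested genes of the 4 lists, members left out (rows; the vertical position within a row carries no value). Orange points are the 7 genes with an adjusted p under 0.05 from edgeR, 6 of them above 0, and Fstl3 is the one below 0.

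From early 2C to 4C in RC embryos, 45 of 156 tested list genes rose and 61 fell, 67.9% called, against 72.7% of all genes. In the Nodal list 8 of 23 rose and 11 fell, in the BMP list 3 of 22 rose and 7 fell, in the FGF and ERK list 19 of 43 rose and 15 fell, and in the Wnt list 15 of 68 rose and 28 fell. Genes that fell included the oocyte ligands Bmp15 (-5.58, SE 0.223) and Gdf9 (-3.10, SE 0.214), the kinase Mapk3 (-4.95, SE 0.282) and Axin2 (-4.03, SE 0.214). Genes that rose included Sos1 (5.46, SE 0.230), which activates Ras downstream of FGF receptors, the Sprouty inhibitor Spry2 (5.30, SE 0.477) and the BMP receptor Bmpr1a (2.49, SE 0.175). The FGF ligand Fgf3 went from a mean of 0.00531 CPM per kb in early 2C RC to 4.16 CPM per kb in 4C RC. Its early 2C level was near 0, so no fold change is given. In LINE1 ASO embryos 52 of 156 rose and 56 fell, 69.2% called, against 71.8% of all genes.

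Among all genes that passed the filter over 12 libraries, those most like each member in log2 CPM were named by Pearson's r, a description in which the difference between stages weighs heavily. Tdgf1 was most like Xylb (r = 0.997), Fgf4 like Nop16 (0.998), Smad3 like D10Wsu102e (0.998), Smad7 like Mrpl43 (0.994) and Id3 like Zfp947 (0.982). Fgfr1 was most like Copa (0.967), Wnt7b like Cstf3 (0.966), Id2 like Heatr7a (0.942), Fgfr2 like Ccz1 (0.942) and Id1 like Arhgef17 (0.900). Between members, r over the 12 libraries was -0.98 for Tdgf1 and Smad3 and 0.98 for Smad7 and Fgf4. Within the 6 libraries of 4C, r was -0.97 for Tdgf1 and Smad3, -0.95 for Smad3 and Fgfr2 and -0.93 for Id3 and Wnt7b. These are the most extreme of all pairs of members at 4C. The libraries are of both ASOs, so the 4C differences between the ASOs weigh heavily in these values. The points also share libraries and scaling.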

How the data were processed

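Total RNA libraries were made with a stranded kit from 500 pg of RNA and sequenced as single-end reads of 50 nt, per the labels' protocols. The authors deposited raw read counts per gene, 1 table per stage. The build mm9 and the tools DESeq2 1.12.3, R 3.3.0, TopHat2 2.0.9 and Trim Galore 0.4.0 are listed without roles, per the submitters' processing notes. The sources used here give neither annotation nor strand setting of the counting, so reads of overlapping or antisense genes may be shared.

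Counts were analysed in R 4.3.3 with edgeR 4.0.16 (filterByExpr, TMM, robust quasi-likelihood F-test, Benjamini-Hochberg over all genes tested, threshold 0.05), which gave every adjusted p unless another tool is named. Differences between ASOs were fitted within each stage on 6 libraries, and stage and interaction on all 12. CPM used the TMM factors of all 12. The SE is the absolute log2 fold change divided by the square root of F. Counting intervals are at 95%, and they and floors cover counting error only. DESeq2 1.42.0, its size factors, library totals, other filters, a replicate block and leaving out each library were alternatives. The fit was tested on simulated counts.

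The members and lists were chosen with earlier results of these data known. From the lists, called genes averaging 50 counts or more per library were eligible, at most the 5 with the smallest p per list and direction, with 20 further genes named for their role. For each member, genes most alike were named by r. Exon lengths are from GENCODE M21 and promoters from RefSeq on GRCm38.p6, matched by symbol. No genome of the build mm9 was used. Retrotransposon RNA was not analysed.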

Additional observations from a re-analysis of the deposited data

How the results depend on the processing

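At early 2C, 0 list genes were called between the ASOs, against 2 with DESeq2 and 1 with no filter on low counts. At 4C, 7 list genes were called, against 20 with DESeq2, 15 with library totals and 16 with no filter. The interaction called 0 members and 0 list genes, against 4 and 6 with DESeq2, 2 list genes with library totals and 1 with no filter. Over all genes, DESeq2 called 140 at early 2C, 1494 at 4C and 862 for the interaction, against 50, 645 and 176 in the main fit. Library totals called 802 of all genes at 4C and 277 for the interaction. With no filter on low counts, 207 of all genes were called at early 2C, 1108 at 4C and 250 for the interaction.

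Whether replicate numbers pair the samples was not settled. Correlations of same-numbered deviations were small, from -0.0272 to 0.0982, and those of other numbers ran from -0.110 to 0.0613. The same-numbered library was the closest for some replicates, among them each LINE1 ASO replicate between early 2C and 4C, and not for others. With a replicate block, 15 list genes and 1504 of all genes were called at 4C, against 7 and 645 without it. Fgfr2 changed sign with stage in RC embryos under the block (log2 fold change -0.026).

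Leaving out 1 library, members called ranged from 0 to 1 at early 2C, 0 to 5 at 4C, 6 to 6 and 6 to 8 between stages in RC and LINE1 ASO embryos, and 0 to 3 for the interaction. List genes called ranged from 0 to 1, 0 to 25, 95 to 107, 99 to 112 and 0 to 16. Log2 fold changes that changed sign were Id3 at early 2C (-0.25 to 0.46), Id1 at 4C (-0.21 to 1.10) and, with stage in RC embryos, Fgfr2 (-0.14 to 0.22), Id1 (-0.23 to 1.45) and Wnt7b (-0.11 to 0.85). Wnt7b at early 2C, below the filter with all libraries, ran from -0.12 to 0.39 in the 4 fits that tested it. Over all genes, calls ranged from 5 to 110 at early 2C (0.0353% to 0.773% of genes tested) and from 4 to 2126 at 4C (0.0267% to 14.3%). Between stages, 66.4% to 71.6% of all genes were called in RC embryos and 64.3% to 71.1% in LINE1 ASO embryos. For the interaction 0.116% to 7.93% of all genes were called, so the ranges of members and list genes stand beside shares that vary as well. Each library holds too few counts of Id1 and Wnt7b in RC embryos for a precise value.

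Library totals moved the median of all genes at 4C from 0.05 to 0.23 and the calls from 274 higher and 371 lower to 563 and 239. No member changed sign under any scaling.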

Other observations

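Wnt10b, singled out after its values were seen, was a Wnt ligand whose 4C levels lay opposite to those of Wnt7b. It was at 8.89, 12.2 and 8.17 CPM in 4C RC and at 1.29, 2.05 and 6.11 CPM in 4C LINE1 ASO, with no overlap, and did not pass the test (log2 fold change -1.67, SE 0.547, edgeR adjusted p = 0.0917). Without 4C LINE1 ASO replicate 3 it passed (-2.68, adjusted p = 0.00286). Per kb its mean was 2.87 CPM in 4C RC and 0.927 CPM in 4C LINE1 ASO.

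Id4, the Id gene that is no member, rose from early 2C to 4C in LINE1 ASO embryos by 2.61 (SE 0.803) and showed no called change in RC embryos (0.10, SE 0.773, edgeR adjusted p = 0.915). The interaction of stage and ASO called no list gene, Id4 included. The difference of Id4 between the ASOs at 4C was 1.90 (SE 0.543, adjusted p = 0.0601), and 1.86 without 4C LINE1 ASO replicate 3 (adjusted p = 0.0734).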
